A study of Homo sapiens with 8 samples.

Results

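The genes described here are 10 textbook targets of YAP and TAZ, chosen by name, namely ANKRD1, AXL, F3, CRIM1, NT5E, PTPN14, MYOF, ASAP1, NUAK2 and GADD45A. They are 10 of the 22411 genes measured, and 10 of a list of 22 widely used target genes, whose other 12 include CCN1 and CCN2. Each was read from 1 transcript cluster, the set of probes that the array assigns to a locus. Total RNA of the SK-N-MC line, established from an Ewing sarcoma, was measured on 8 whole-transcript arrays. Ewing sarcoma arises in bone or soft tissue, mostly in the young. The control group was 4 cultures transfected with a non-targeting siRNA, and the other group was 4 cultures that received siRNAs targeting YAP1 together with siRNAs targeting TAZ. In both groups the siRNA was at 10 nM, the transfection reagent was Viromer Blue, and RNA was taken at 72 h. The cultures were plated, transfected and harvested in parallel, so the spread between them does not cover variation between separate experiments. All values are log2 signals, and the small number of arrays limits their precision.

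YAP1 and TAZ (gene symbol WWTR1) are co-activators that enter the nucleus when the Hippo kinases LATS1 and LATS2 are inactive. They do not bind DNA themselves but act through the TEAD transcription factors, which recognise the core sequence GGAATG. Genes that lose expression when YAP and TAZ are removed from epithelial and mesenchymal cells serve as readouts of the pathway, and ANKRD1 and AXL are among the most used. In Ewing sarcoma the fusion protein EWS-FLI1 sets much of the gene programme. These readouts were chosen in other cells, and any part of the fusion in their signal here was not tested.

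Promoter windows were searched for the letters through which TEAD factors are known to act. RefSeq windows (GRCh38.p14), running from 250 bases before to 50 bases after an annotated gene start, were matched by symbol for 7 of the 10 genes, AXL with 2 windows. The motif GGAATG was searched on both strands, so that CATTCC counts as the motif on the opposite strand, and no other motif was searched. It was found in 4 of the 8 windows, and in 5 of 10 windows of the other targets, against 14.0% of all 35116 windows of 300 bases. ANKRD1 (chr10:90921038-90921337, minus strand) held it at 220 and 128 bases before the gene start. NUAK2 (chr1:205321696-205321995, minus strand) held it at 197 and 18 bases before the start, and PTPN14 (chr1:214551553-214551852, minus strand) at 200 bases. The second AXL window (chr19:41226505-41226804, plus strand) held it at 212 bases, and the F3, MYOF, NT5E and first AXL windows did not hold these letters. Of the windows that held the motif, those of ANKRD1, NUAK2 and PTPN14 follow. With them is that of CCN2 (chr6:131951323-131951622, minus strand), a target outside the 10 whose window held the motif 3 times. Each is written 5′ to 3′ on the strand of the gene, with the motif in capitals.
ANKRD1: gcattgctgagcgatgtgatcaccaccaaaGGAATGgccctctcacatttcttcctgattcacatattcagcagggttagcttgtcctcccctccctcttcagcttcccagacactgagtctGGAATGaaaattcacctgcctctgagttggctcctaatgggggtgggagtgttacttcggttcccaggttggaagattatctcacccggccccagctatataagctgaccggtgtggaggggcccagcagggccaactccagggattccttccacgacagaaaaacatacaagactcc
NUAK2: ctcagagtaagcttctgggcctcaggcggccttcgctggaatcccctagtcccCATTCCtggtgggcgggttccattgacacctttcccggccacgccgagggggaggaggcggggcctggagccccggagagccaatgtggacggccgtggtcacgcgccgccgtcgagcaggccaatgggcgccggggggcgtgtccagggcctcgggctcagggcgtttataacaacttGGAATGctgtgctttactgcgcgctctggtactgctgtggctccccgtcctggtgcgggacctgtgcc
PTPN14: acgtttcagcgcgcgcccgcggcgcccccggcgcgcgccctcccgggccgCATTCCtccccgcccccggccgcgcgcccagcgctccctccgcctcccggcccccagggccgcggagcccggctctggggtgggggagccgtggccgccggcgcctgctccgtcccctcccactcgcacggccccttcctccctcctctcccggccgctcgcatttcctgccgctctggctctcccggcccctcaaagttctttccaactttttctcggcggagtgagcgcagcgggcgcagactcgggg
CCN2: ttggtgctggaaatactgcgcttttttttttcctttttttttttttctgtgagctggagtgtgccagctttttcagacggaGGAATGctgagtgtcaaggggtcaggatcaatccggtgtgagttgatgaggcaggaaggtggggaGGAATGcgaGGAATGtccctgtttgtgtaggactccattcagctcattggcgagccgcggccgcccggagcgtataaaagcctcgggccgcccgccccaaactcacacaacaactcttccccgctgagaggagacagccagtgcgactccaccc
A match describes the letters only, and these arrays did not measure binding.

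**Figure D1:**
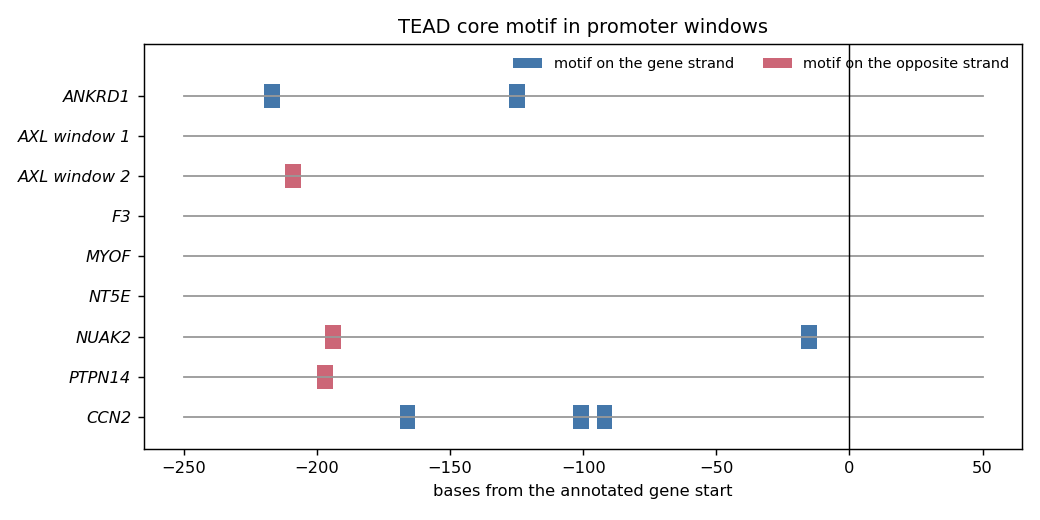
Position of the motif GGAATG in promoter windows of 7 of the 10 target genes and of CCN2. The x axis gives bases from the annotated gene start, the grey line is the window, blue boxes mark the motif on the gene strand and red boxes on the opposite strand. ANKRD1 and NUAK2 each hold it 2 times, PTPN14 and the second AXL window 1 time each, and CCN2 3 times.

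The silencing was visible in both targeted genes. YAP1 read 7.64, 7.72, 7.71 and 7.66 on the control arrays and 6.27, 6.41, 6.42 and 6.40 on the YAP1/TAZ siRNA arrays. WWTR1 read 6.52, 6.39, 6.42 and 6.57 against 5.74, 5.91, 5.91 and 5.86. The groups did not overlap for either gene, and a 2-sided exact permutation test gave p = 0.0286 for both, the lower limit of the test at this size. The limma adjusted p was 4.73e-05 for YAP1 and 0.00898 for WWTR1. On the linear scale the changes were −59.6% and −34.9%. The change in WWTR1 missed the threshold with the replicate number as a block (adjusted p = 0.147) and without control replicate 1 (adjusted p = 0.0515).

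The arrays correlated with each other at 0.992 to 0.998 across all genes. Control replicate 4 and YAP1/TAZ siRNA replicate 2 stood apart on the leading principal component (46.0% of the variance), with loadings of 0.59 and 0.57 against −0.31 to 0.071 for the other arrays. Their array medians, 4.48 and 4.49, were the highest of the 8. Of 8 Ewing sarcoma markers 7 were measured, among them STEAP1, CD99 and PAX7, with mean signals of 9.38 to 15.37. LIPI of that list fell by 0.63 (limma adjusted p = 0.0136), while 5 of the 7 differences lay above 0 without passing, the highest being 0.47 for PAX7, 0.46 for PRKCB and 0.30 for CCND1 (adjusted p = 0.279, 0.102 and 0.265). For LIPI, PRKCB and CCND1, 3 of the 7, the groups did not overlap, against 6.22% of all genes. Those p are of the main fit. The lowest limma adjusted p under any alternative was 0.00893 for PRKCB, 0.0484 for PAX7 and 0.0701 for CCND1. Epithelial, blood and endothelial markers had median signals of 4.17, 4.44 and 3.99. The highest of each list were EPCAM at 5.405, CD68 at 6.06 and CDH5 at 4.35. Of 5 neuroblastoma markers 4 were measured, with a median of 5.13, the highest being HAND2 at 6.01 and GATA3 at 5.64. Of 5 fibroblast markers the signals ran from 4.87 to 7.91, and the differences, none of which passed, from −0.54 for LUM (limma adjusted p = 0.185) to 0.25 for THY1 (0.48). Outside the Ewing sarcoma list, the groups did not overlap for LUM and for 1 epithelial marker. Whether these markers had a part in any result was not tested.

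None of the 10 target genes passed the test for a change when YAP1 and TAZ were reduced. By limma, with Benjamini-Hochberg adjustment over all 22411 genes, 0 fell and 0 rose at an adjusted p under 0.05, where 0.214% of all genes passed, 18 (0.0803%) falling and 30 (0.134%) rising. At an unadjusted p under 0.05 the count was also 0, against 10.3% of all genes. The YAP1/TAZ siRNA and control arrays overlapped for each of the 10, where 6.22% of all genes had groups that did not overlap. The differences ran from −0.13 for NT5E to 0.14 for CRIM1, with 8 of 10 below 0, where 46.1% of all genes lay below 0. Their median was −0.06, against 0.0075 over all genes. Of 24 genes restricted to other tissues, which serve as a floor reference below, 16 also lay below 0, with a median of −0.0275. All 5 target genes within the signal range of those 24 lay below 0, as did 3 of the 5 above that range. In RNA of whole cultures, fewer cells with a transcript and less of it per cell cannot be told apart.

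Of the 10 genes, 5 read above and 5 within the range of genes that should be silent in these cells. As a reference for the floor, 24 genes restricted to other tissues, such as ALB of liver and MYH6 of heart muscle, had mean signals from 3.57 to 5.86, with a median of 4.06. ASAP1, PTPN14, CRIM1, GADD45A and F3 lay above that range, F3 by little, and AXL, NT5E, MYOF, NUAK2 and ANKRD1 within it. ANKRD1 and NUAK2 each exceeded 2 of the 24 reference genes, MYOF 13, and AXL and NT5E 17 each. The upper end of the range rests on 1 gene, TNNI3 at 5.86. The same 5 genes lay above and the same 5 below the median of all genes, 5.03. Probes of different genes have no common scale, so this says whether a signal stands clear of genes that should be silent, and gives no order of transcript abundance. No detection call was used here.

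**Figure D2:**
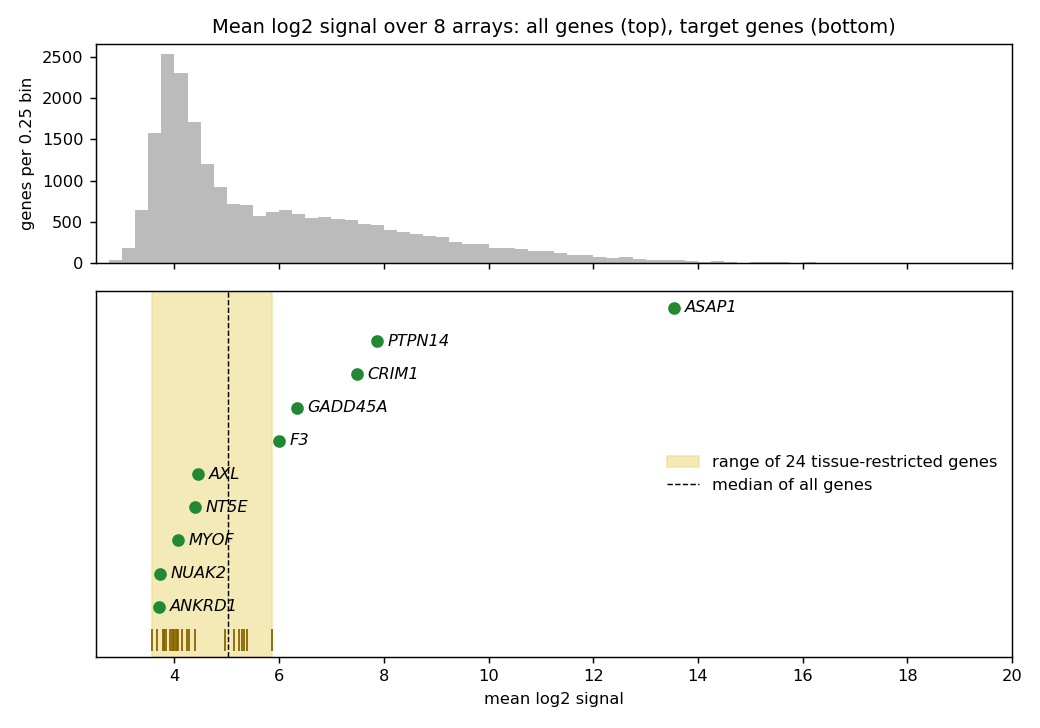
Mean log2 signal over 8 arrays. The top panel is a histogram of all 22411 genes in bins of 0.25. The bottom panel places the 10 target genes, with the range of 24 tissue-restricted genes shaded, each of those genes as a tick, and the median of all genes dashed. AXL, NT5E, MYOF, NUAK2 and ANKRD1 sit inside the shaded range of 3.57 to 5.86 and the other 5 genes above it.

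Among the nuclear members, ANKRD1 encodes a cardiac ankyrin repeat protein that acts in the nucleus and the sarcomere. Its control arrays read 3.73, 3.69, 3.78 and 3.77, and its YAP1/TAZ siRNA arrays 3.61, 3.73, 3.73 and 3.65. The group means were 3.74 ± 0.041 and 3.68 ± 0.060 (SD, n = 4 per group), with a mean of 3.71 over all arrays. The difference was −0.06 (SE 0.051, limma adjusted p = 0.766), smaller than the range within either group, and was −0.039 without YAP1/TAZ siRNA replicate 1.

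GADD45A is a stress-induced protein that takes part in growth arrest and DNA repair. Its mean signal of 6.34 lay above that of the highest tissue-restricted gene, 5.86. Its controls read 6.24, 6.57, 6.44 and 6.34, and its YAP1/TAZ siRNA arrays 6.26, 6.30, 6.25 and 6.30. All 4 YAP1/TAZ siRNA arrays lay within the range of the controls, whose SD was 0.14 against 0.026. The difference was −0.12 (SE 0.072, adjusted p = 0.639 by limma). It was −0.062 without control replicate 2 (adjusted p = 0.862) and −0.17 without control replicate 1 (unadjusted p = 0.0345, adjusted p = 0.5).

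The surface and secreted members held 2 genes above the range of the tissue-restricted genes, CRIM1 and, by little, F3. CRIM1 encodes a transmembrane protein with cysteine-rich repeats that binds bone morphogenetic proteins. It read 7.48, 7.46, 7.32 and 7.39 in controls and 7.50, 7.34, 7.64 and 7.71 with YAP1/TAZ siRNA. All YAP1/TAZ siRNA arrays except replicate 2 lay above every control, and replicate 2 lay near the lowest control. CRIM1 had the highest difference of the 10, 0.14 (SE 0.085, limma adjusted p = 0.656), one of 2 above 0. Without YAP1/TAZ siRNA replicate 2 it was 0.20 (SE 0.068, adjusted p = 0.197), and with replicate 4 of that group left out 0.081 (adjusted p = 0.919).

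F3, tissue factor, is the receptor that starts blood coagulation by binding factor VII. Its signal was 5.84, 6.01, 6.0 and 6.07 in controls and 6.06, 6.02, 5.94 and 6.05 with YAP1/TAZ siRNA. The groups coincided apart from the lower first control, with a difference of 0.04 (SE 0.062, adjusted p = 0.906 by limma). Without control replicate 1 the difference was −0.0092. Leaving out YAP1/TAZ siRNA replicate 1 gave 0.023, replicate 3 of that group 0.063, control replicate 4 gave 0.068, and both arrays that stood apart 0.067.

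AXL, a receptor tyrosine kinase for the ligand GAS6, read 4.46, 4.42, 4.43 and 4.60 in controls and 4.42, 4.54, 4.39 and 4.37 with YAP1/TAZ siRNA. The highest array of each group was one of those that stood apart. The difference was −0.05 (SE 0.063, limma adjusted p = 0.878). Leaving out control replicate 4 gave −0.0067. Leaving out YAP1/TAZ siRNA replicate 4 gave −0.028, and replicate 2 of that group −0.084.

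NT5E, the ectoenzyme CD73 that makes adenosine from AMP outside the cell, had the smallest p of the 10. It read 4.35, 4.52, 4.45 and 4.52 in controls and 4.26, 4.42, 4.35 and 4.28 with YAP1/TAZ siRNA. All YAP1/TAZ siRNA arrays except replicate 2 lay at or below the lowest control, and replicate 2 overlapped the controls. The difference was −0.13 (SE 0.061), with an unadjusted limma p of 0.0591 and an adjusted p of 0.511. With each array centred on its median it was −0.11. The genes whose signals followed NT5E most closely over the 8 arrays were SNORA3B (Pearson r = 0.93), MIR885 (0.93) and C1orf52 (0.92), picked as the highest of all genes above the median level. Genes read on the same array share its culture and hybridisation, so a high r over so few arrays is a description only.

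Of the signalling and membrane members, PTPN14 encodes a tyrosine phosphatase that holds YAP in the cytoplasm, and is thus a target that feeds back on the pathway. It read 8.05, 8.08, 7.96 and 7.61 in controls and 7.86, 7.63, 7.90 and 7.87 with YAP1/TAZ siRNA. The lowest array of each group was the one that stood apart, control replicate 4 and YAP1/TAZ siRNA replicate 2, and the other 3 controls lay above the other 3 YAP1/TAZ siRNA arrays. The difference was −0.11 (SE 0.11, limma adjusted p = 0.824). Without both of those arrays it was −0.15 (SE 0.052), with an unadjusted p of 0.0217 and an adjusted p of 0.211. Without control replicate 4 alone it was −0.22 (SE 0.079, adjusted p = 0.445), and without YAP1/TAZ siRNA replicate 2 alone −0.05 (SE 0.11, adjusted p = 0.859). It was −0.068 without control replicate 1 and −0.058 without control replicate 2.

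ASAP1, a GTPase-activating protein for Arf proteins that acts at focal adhesions and podosomes, had a very high signal of 13.79, 13.64, 13.49 and 13.46 in controls. With YAP1/TAZ siRNA it read 13.64, 13.28, 13.58 and 13.52. The ranges overlapped for all but 2 arrays, and the difference was −0.09 (SE 0.10, limma adjusted p = 0.846). It was −0.015 without YAP1/TAZ siRNA replicate 2 and −0.025 without control replicate 1. Without control replicate 4, and likewise without YAP1/TAZ siRNA replicate 1, it was −0.14.

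MYOF, myoferlin, is a membrane repair and fusion protein of the ferlin family, and NUAK2 is a kinase related to AMPK that promotes actomyosin contraction. MYOF read 4.09, 4.06, 4.07 and 4.20 in controls and 4.01, 4.15, 4.04 and 3.97 with YAP1/TAZ siRNA. NUAK2 read 3.79, 3.74, 3.70 and 3.76 against 3.72, 3.77, 3.76 and 3.56. Both stayed near the floor in both groups, with differences of −0.06 (SE 0.059) and −0.05 (SE 0.060). For MYOF, leaving out control replicate 4 gave −0.031, YAP1/TAZ siRNA replicate 4 gave −0.038, and replicate 2 of that group −0.098. The NUAK2 difference rested on YAP1/TAZ siRNA replicate 4, with 0.0025 when it was left out, and was −0.068 when replicate 2 of that group was.

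**Figure D3:**
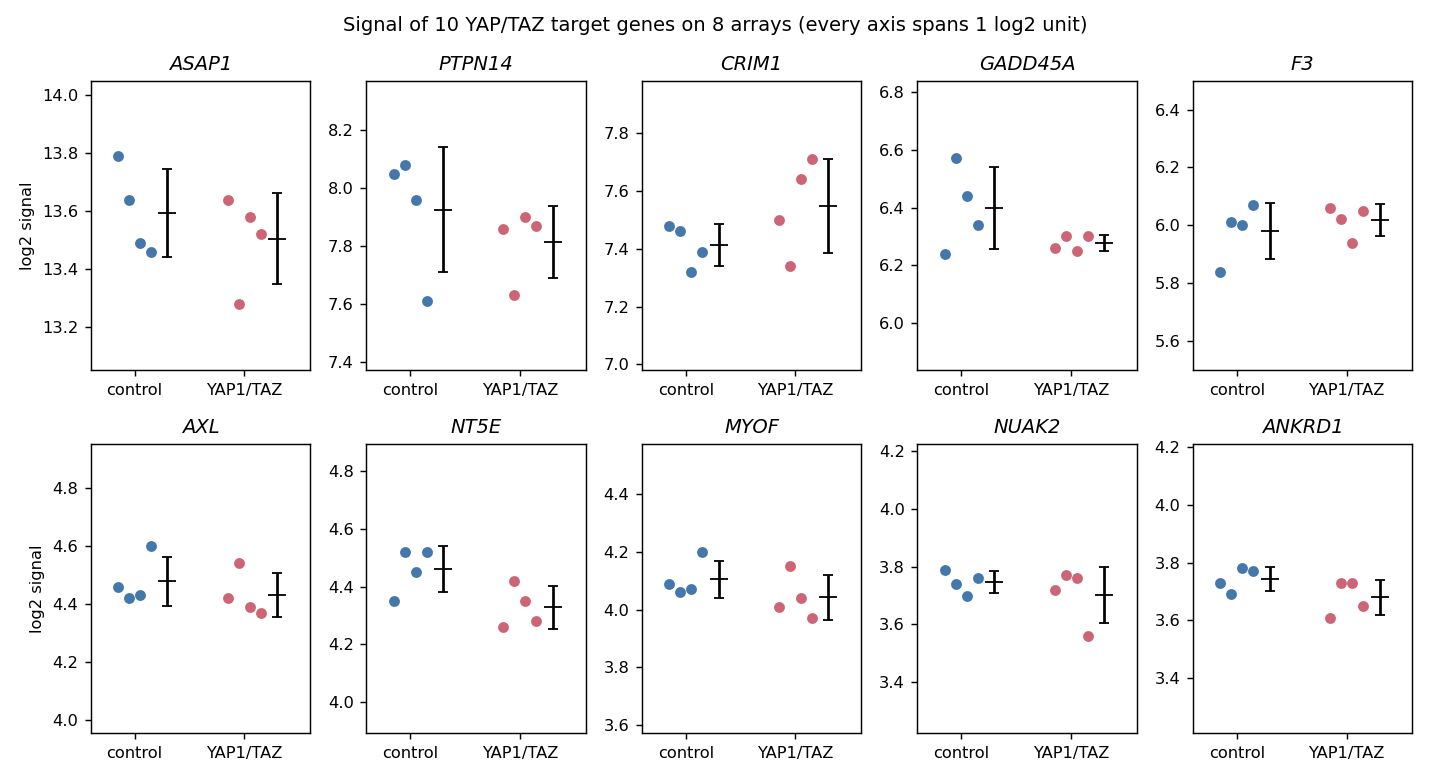
Log2 signal of each of the 10 target genes on the 8 arrays, control siRNA in blue and YAP1/TAZ siRNA in red, with the group mean and SD in black (n = 4). Every panel spans 1 log2 unit around the gene's own mean. The 2 groups overlap in every panel, with CRIM1 highest on 2 YAP1/TAZ siRNA arrays at 7.64 and 7.71.

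The intervals of these differences say how large a fall the arrays leave possible. The lower 95% bound was −0.36 for PTPN14, −0.32 for ASAP1, −0.28 for GADD45A and −0.27 for NT5E. It lay between −0.20 and −0.06 for the other 6. On the linear scale the bounds ran from −22.2% for PTPN14 to −3.92% for CRIM1, so a 2-fold fall in signal lay outside each interval. At the spread of each gene a difference of 0.34 (ANKRD1) to 0.74 (PTPN14) in size would have matched the p of the last gene that passed, so smaller changes could not have been called. For the 5 genes near the floor a fall in transcript number may not lower the signal, so their intervals bound the signal only. Over 10 exact permutation tests, 2-sided and unadjusted, the p ran from 0.0857 for NT5E to 0.629 for F3.

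Among the 12 other genes of the same target list, CCN1 and AMOTL2 fell, 0 rose and 10 did not pass. In 6 of the 12 the groups did not overlap, against 6.22% of all genes. IGFBP3 alone of the 6 lay higher with YAP1/TAZ siRNA, by 0.085 (limma adjusted p = 0.59). This list was chosen with earlier results known, so its count is no independent evidence. CCN1, a secreted matricellular protein, read 6.59, 6.58, 6.60 and 6.86 in controls and 5.58, 5.63, 5.64 and 5.59 with YAP1/TAZ siRNA. The difference was −1.05 (95% interval −1.21 to −0.89, limma adjusted p = 0.00122), and its whole interval lay below that of each of the 10 genes. With the replicate number as a block the adjusted p of CCN1 was 0.0621.

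AMOTL2, an angiomotin that binds YAP, read 6.27, 6.28, 6.31 and 6.32 against 5.89, 5.94, 5.95 and 5.86. It fell by 0.38 (interval −0.49 to −0.28, limma adjusted p = 0.0188), but missed the threshold when any array but YAP1/TAZ siRNA replicate 2 was left out (adjusted p of 0.0610 to 0.0923), with arrays centred on their medians (0.0761) and with the replicate number as a block (0.239). The Hippo kinase LATS2 differed by −0.39 (interval −0.55 to −0.24, adjusted p = 0.0783 by limma) and the matricellular CCN2 by −0.44 (interval −0.68 to −0.21, adjusted p = 0.145). LATS2 passed without both arrays that stood apart (adjusted p = 0.0348). With array quality weights 4 of the 12 fell, LATS2 and CCN2 among them. The lowest limma adjusted p under any alternative was 0.00950 for LATS2 and 0.0320 for CCN2. CCN2, with a control mean of 4.77, differed by −0.44 from within the range of the tissue-restricted genes. Its control arrays of 4.97, 4.84, 4.49 and 4.76 all lay above its YAP1/TAZ siRNA arrays of 4.28, 4.47, 4.24 and 4.29. RBMS3 and TGFB2 differed by −0.12 and −0.11 (adjusted p = 0.455 and 0.56), TGFB2 by −0.069 without YAP1/TAZ siRNA replicate 4. The median difference of the 12 was −0.11, against −0.06 for the 10. Whether the lists differ was not tested, and they share all 8 arrays.

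**Figure D4:**
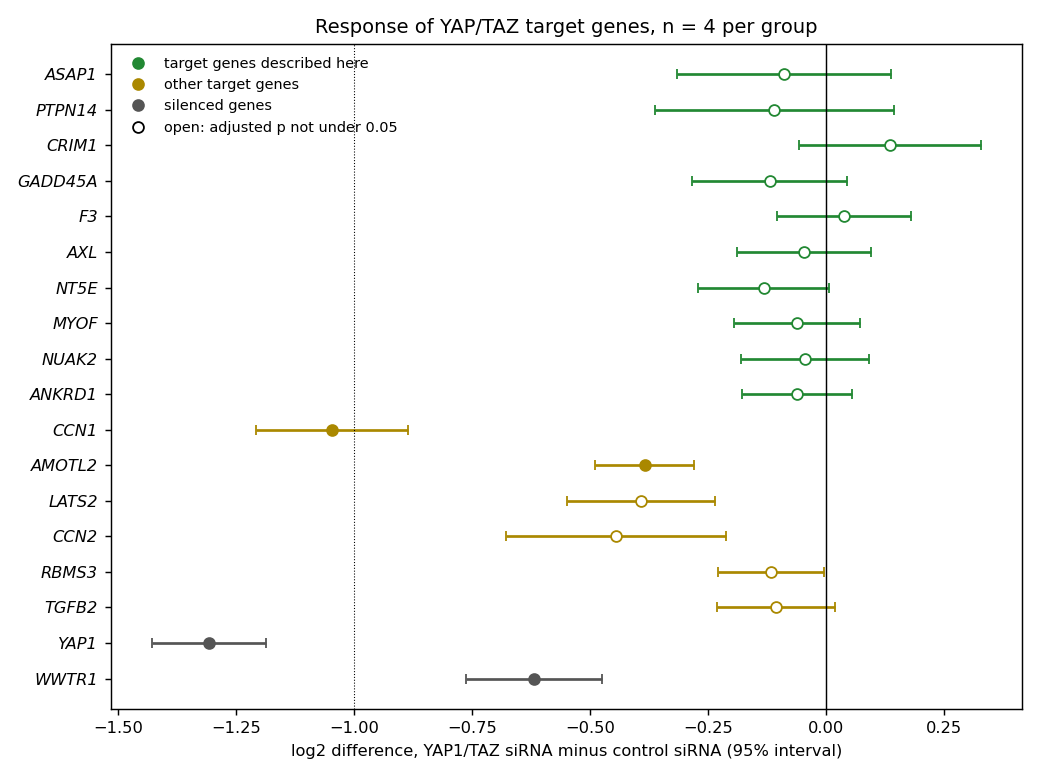
Log2 difference, YAP1/TAZ siRNA minus control siRNA, with its 95% interval from limma (n = 4 per group), for the 10 target genes in green, 6 other target genes in brown and the silenced genes in grey. Filled points passed an adjusted p under 0.05, and the dotted line marks a 2-fold fall. Every green interval includes 0 and lies above the whole CCN1 interval of −1.21 to −0.89.

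Paralogs and direct partners of the 10 genes showed no called change either. Of 48 listed, 46 were measured, 0 fell and 0 rose by limma over all genes (0.214% of all genes passed), and 5 had an unadjusted p under 0.05 (10.3% of all genes). The median difference was 0.010, with 18 below 0, 26 above and 2 at 0. ASAP2, an Arf GTPase-activating protein and paralog of ASAP1, had the smallest p. It read 7.60, 7.50, 7.35 and 7.49 in controls and 8.07, 7.73, 8.13 and 8.02 with YAP1/TAZ siRNA. The groups did not overlap, and the difference was 0.50 (SE 0.094, limma adjusted p = 0.0905). It passed without YAP1/TAZ siRNA replicate 2 (0.59, adjusted p = 0.0181), its lowest array of that group, and without both arrays that stood apart (adjusted p = 0.0295). ASAP3, the third ASAP paralog, differed by 0.20 (adjusted p = 0.348). In 4 of the 46 the groups did not overlap, ASAP2, ASAP3, TFPI and PCNA, against 6.22% of all genes.

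TFPI, the inhibitor of the coagulation complex that F3 starts, differed by −0.18 (SE 0.058, limma adjusted p = 0.29), and by −0.12 without both arrays that stood apart. PCNA, the replication clamp that GADD45A binds, differed by 0.11 (adjusted p = 0.446). Around AXL, the ligand GAS6 and the sister receptors TYRO3 and MERTK had differences between −0.10 and 0.13. For the enzymes and receptors that handle adenosine around NT5E the 10 differences ran from −0.11 to 0.20, with 4 below 0, 5 above and 1 at 0. The 5 genes around MYOF, other ferlins and the non-ferlin EHD2, lay within −0.03 to 0.08. Their mean signals, 3.86 to 4.48, were near the floor like that of MYOF. The 3 genes around NUAK2, all above 0, ran from 0.06 to 0.13.

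In the signals as deposited, most of the genes near the floor were high on the arrays that stood apart, and several brighter genes were low there. Of the 5 genes near the floor, 5 were highest on YAP1/TAZ siRNA replicate 2 within its group, ties included, and AXL, NT5E and MYOF, but not ANKRD1 and NUAK2, were highest on control replicate 4 within its group. Of the 5 brighter genes, 3 were lowest on YAP1/TAZ siRNA replicate 2 (ASAP1, PTPN14 and CRIM1) and 2 on control replicate 4 (ASAP1 and PTPN14). F3 went the other way, with its highest control on replicate 4, and GADD45A was tied for the highest of its group on YAP1/TAZ siRNA replicate 2. Both arrays had the highest median of their group. With each array centred on its median, none of the 5 genes near the floor was highest on YAP1/TAZ siRNA replicate 2. Of those 5, only AXL was then highest on control replicate 4. ASAP1, PTPN14 and CRIM1 were still lowest on YAP1/TAZ siRNA replicate 2, and so were F3 and GADD45A after centring. Each group held 1 of the arrays that stood apart. Without both, the 10 differences still had no limma adjusted p under 0.05, the lowest being that of PTPN14. What part this had in the spread of the other genes was not tested.

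**Figure D5:**
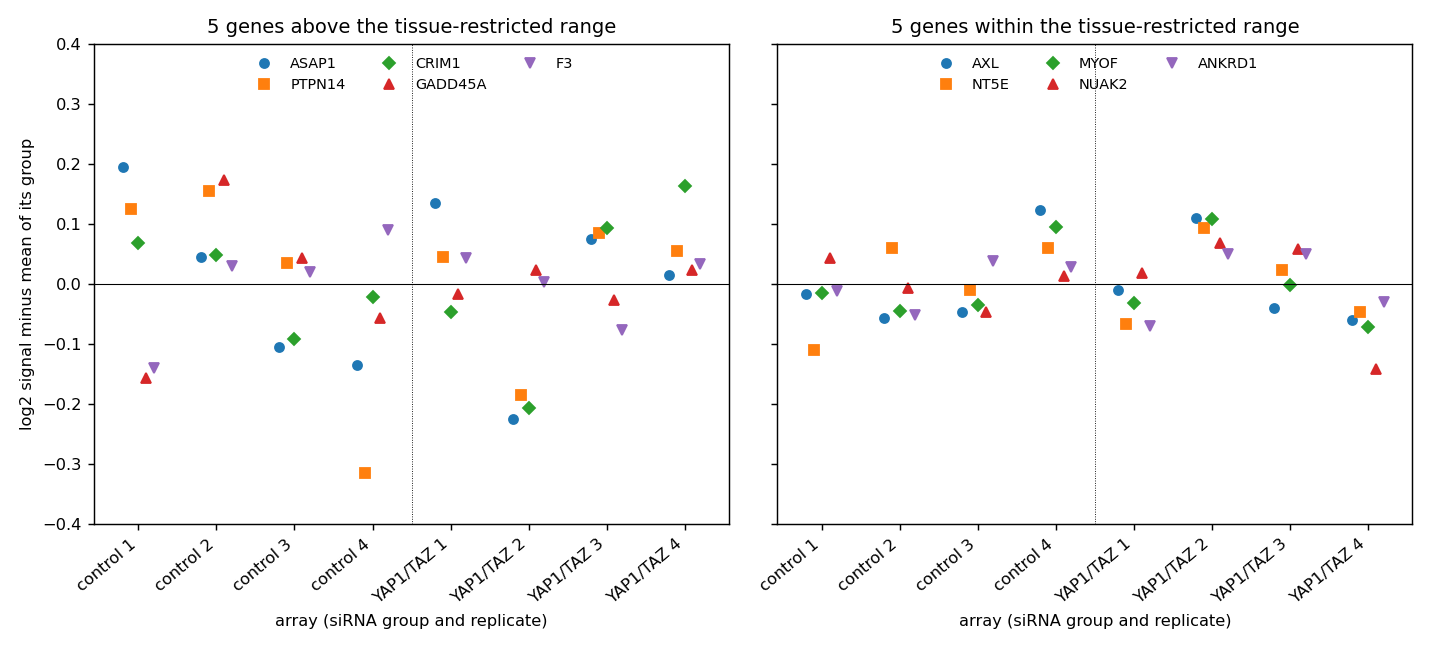
Log2 signal minus the mean of its own siRNA group, by array, for the 5 target genes above the tissue-restricted range (left) and the 5 within it (right). ASAP1, PTPN14 and CRIM1 dip on YAP1/TAZ siRNA replicate 2. All 5 genes on the right are at their highest of that group there, AXL at 4.54 and MYOF at 4.15. Signals are as deposited, and that array had the highest median. With each array centred on its median, none of those 5 was highest there.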

How the data were processed

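RNA of the 8 cultures was labelled as biotinylated cRNA with the GeneChip WT PLUS kit, per the labels' protocols. The authors deposited one log2 signal per transcript cluster and array. The submitters' processing notes name Transcriptome Analysis Console. Its version and the build, summary method and normalization behind the values were not given in the sources used here, and the log2 scale was read from the values (2.27 to 19.93). Summaries over many probes can compress differences.

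Of 67528 clusters, the 23781 with 1 gene symbol were used, with symbols updated to RefSeq names. For the 528 genes with several clusters the one with the highest mean was kept, giving 22411 genes without a filter on dim genes. Groups came from the sample titles. Differences were fitted in R 4.3.3 with limma 3.58.1 (lmFit, eBayes, 95% intervals, no covariate) and adjusted by Benjamini-Hochberg over all genes, with a threshold of 0.05. The fit was tested on simulated data. Signals were not set to a common scale between genes.

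The 10 genes, the lists of other targets, partners, markers and tissue-restricted genes, and the tests were chosen with earlier results of these data known. Named besides the 10, YAP1 and WWTR1 were, in the other targets and the partners, those that passed and the 4 further genes with the smallest p. C1orf52, SNORA3B and MIR885 were the closest to NT5E by Pearson r. The markers named with a difference or as the highest of a list, TNNI3, IGFBP3 and the partners named by group were chosen after their values were seen. Alternatives were quantile normalization, median centring, the replicate number as a block, a filter at the median level, other ways to treat several clusters, array quality weights, a robust limma-trend fit, and fits without single arrays or without both arrays that stood apart. Same-numbered cultures deviated together in 1 of 4 pairs only (correlations of deviations from −0.47 to 0.37). Differently numbered cultures ran from −0.54 to 0.61, the highest being control replicate 4 with YAP1/TAZ siRNA replicate 2, the arrays that stood apart. Those arrays weigh on the correlations, which therefore cannot settle whether the numbers pair the cultures. The main fit did not pair them, and the replicate block is given as an alternative.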

Additional observations from a re-analysis of the deposited data

Results flagged for a closer look

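In groups of 4 arrays, 5 of the 44 sets tested had 1 array far from the other 3, where chance gives about 1 in 20. PTPN14 read 7.63 on YAP1/TAZ siRNA replicate 2, below the other 3 arrays of that group, which reached 7.90. YAP1 read 6.27 on YAP1/TAZ siRNA replicate 1, below the others of its group, which reached 6.42. CCN1 read 6.86 on control replicate 4, above the other controls, the lowest at 6.58. RBMS3 read 4.93 on control replicate 1, below controls that reached 5.06. TGFB2 read 4.58 on control replicate 2, above controls as low as 4.51.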

How the results depend on the processing

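No gene of the 10 that was tested passed in either direction under any of the 17 alternatives, of which the filter at the median level tested 5 of the 10. The lowest limma adjusted p was 0.161 (NT5E with array quality weights), and 11 of the recomputed differences had an unadjusted p under 0.05, of NT5E, CRIM1, PTPN14 and GADD45A. Of 165 recomputed differences of the 10 genes, 163 kept their direction. The exceptions were F3 without control replicate 1 (−0.0092, in a range up to 0.068 when 1 array was left out) and NUAK2 without YAP1/TAZ siRNA replicate 4 (0.0025, in a range down to −0.068). The count over all genes was 17 with arrays centred on their medians, 3 with the replicate number as a block, 82 with only genes above the median level, 559 with array quality weights and 188 without both arrays that stood apart, and 12 to 166 when 1 array was left out. The share that rose, 62.5% of 48, was 51.4% of 72 after quantile normalization, 78.2% of 559 with array quality weights, 76.6% of 188 without both arrays that stood apart and 82.5% of 166 without YAP1/TAZ siRNA replicate 2. It was 33.3% of 3 with the replicate block. Of the 12 other targets, 1 fell with centred arrays, 0 with the replicate block and 4 with array quality weights, and 1 to 2 when 1 array was left out. WWTR1 differed by −0.62 with the replicate block (adjusted p = 0.147), and by −0.65 to −0.58 when 1 array was left out. The block changed no call among the 10. The cause of these shifts was not tested. No detection calls were used, which limits AXL, NT5E, MYOF, NUAK2 and ANKRD1 most.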
